A study of Mus musculus with 7 samples.

Results

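The genes described here encode the machinery that brings proteins into mitochondria. They were taken by name as the genes whose symbol begins with Timm or Tomm and a number, together with Grpel1, Grpel2, Hspa9, Pam16, Dnajc15, Dnajc19, Samm50, Mtx1, Mtx2, Pmpca and Pmpcb. Of the 22180 genes with a probe set of their own on the array, 33 met this rule, through 36 probe sets. For the 2 genes with several probe sets, Timm8a1 and Timm10b, the one with the highest mean over the arrays was kept, so a level chose it and that level is no finding. The family was proposed with its genotype differences in these data known, so the counts and p-values below describe it and support nothing about it on their own. Dnajc19, Tomm5 and Tomm6 had no probe set with a single symbol and were not analysed here.

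Macrophages were sorted from the colon lamina propria of mice with colitis, and RNA from each of 7 samples was measured on an array of its own, the Affymetrix Mouse Gene 2.0 ST. Dextran sulphate sodium (DSS), which injures the colon epithelium, was given at 5% for 5 days and was followed by 3 days of normal water. The sorted cells were CD45+ CD11b+ CD64+ MHCII+ Ly6C-. All mice were Rictorfl/fl, with floxed alleles of a subunit of the kinase complex mTORC2. The 3 control samples were LysM+/+ and the 4 others LysM+/cre, with cre recombinase expressed from the lysozyme M locus in myeloid cells, which include monocytes and neutrophils as well as macrophages. No group carried cre without floxed Rictor, so cre itself and the loss of Rictor cannot be told apart. Whether a sample was 1 mouse or a pool, and the age, sex and strain of the mice, are not stated in the labels, and p-values measure the spread between these samples only.

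The deposited values are log2 intensities already on a common scale, with array medians of 5.16 to 5.22. The 9 macrophage and gating genes checked averaged 11.08 to 11.30 on the LysM+/+ arrays and 10.96 to 11.53 on the LysM+/cre arrays. Of these, 5 had higher and 4 lower means with cre. The lower ones were H2-Ab1 (-0.044), H2-Aa (-0.058), Mertk (-0.31) and Cx3cr1 (-0.018). At an unadjusted p under 0.05 (limma) 2 were higher, against 6.56% of all genes, both encoding proteins used in the sort. Fcgr1, which encodes CD64, differed by 0.97 ± 0.26 (SE, adjusted p = 0.362, limma) and Itgam, which encodes CD11b, by 0.53 ± 0.19 (SE, adjusted p = 0.415, limma), and their part in the import result was not tested. Ly6c2, a gene of the Ly6C that the gate excludes, is counted with the monocyte and neutrophil markers below. It was also higher with cre, by 1.09 ± 0.41 (SE, adjusted p = 0.415, limma). Rictor itself lay between 7.74 and 7.80 without cre and between 7.72 and 8.25 with cre (difference 0.12, SE 0.13, adjusted p = 0.749, limma). Whether its probes lie in the floxed exons is unknown here, so this signal does not check the labels. In such bulk samples fewer cells of a type and less RNA per cell cannot be told apart.

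Nearly all mitochondrial proteins are encoded in the nucleus, made in the cytosol and imported. The TOM complex is the general entry gate of the outer membrane, and the SAM complex inserts barrel proteins there. Proteins with a cleavable presequence then pass through the TIM23 channel, are pulled into the matrix by the Hspa9 motor and are trimmed by the matrix processing peptidase. Carrier proteins are instead escorted by the small TIM chaperones to the TIM22 complex.

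Import genes were mostly higher on the LysM+/cre arrays. The mean was higher with cre for 28 of the 33 genes, against 51.4% of all genes tested, and the median log2 difference was 0.22, against 0.00 over all genes. At an unadjusted p under 0.05 (limma) 14 members were higher, against 6.56% of all genes, and 0 were lower, against 4.93%. Every LysM+/cre array lay above every LysM+/+ array for 8 members, against 5.23% of all genes, and the reverse held for 0 members, against 3.56%. None of the 33 passed an adjusted p of 0.05 over all genes, where 0% of genes were called, and the smallest adjusted p in the family was 0.303.

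Brightness bears on that background. A mean above that of the median gene was found for 32 of the 33 members, and among the 11090 genes above it 11.5% were higher at an unadjusted p under 0.05, with a median difference of 0.03. The count of 14 also depended on single arrays. Leaving out LysM+/+ array 3 gave 6 (against 4.55% of all genes), LysM+/+ array 2 gave 7 (5.46%) and LysM+/cre array 2 gave 9 (5.24%). Between 27 and 29 members kept a higher mean whichever array was left out.

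**Figure D1:**
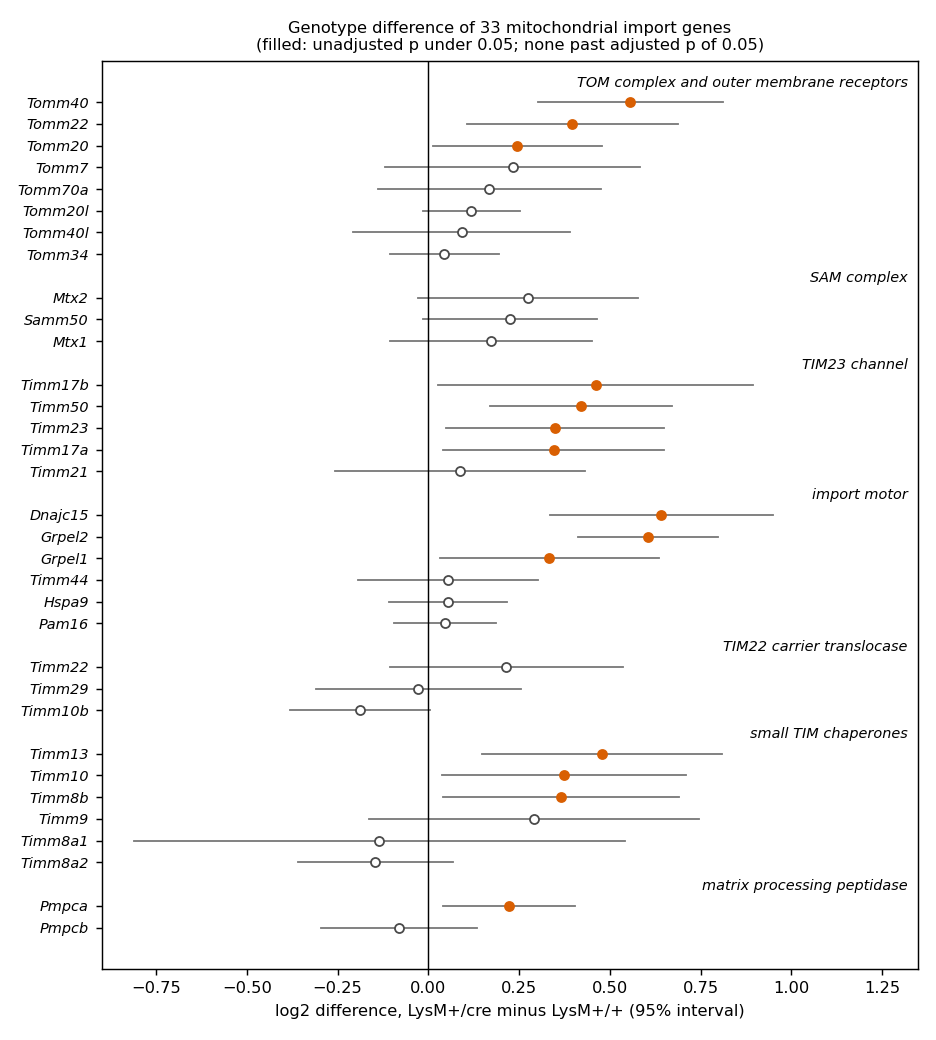
Log2 difference between the genotypes (x axis, LysM+/cre minus LysM+/+) for each of the 33 import genes, grouped by role, with 95% intervals from limma. The 14 filled points have an unadjusted p under 0.05, and they lie to the right of 0 in every group except the SAM complex and the TIM22 translocase, which hold none.

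Upstream sequences of the members were compared because many of them were higher together. RefSeq promoters (GRCm38.p6, 250 bases before to 50 bases after the first listed start) were matched for 28 of the 33 genes. The letters CCGGAAG, searched on both strands and bound by ETS factors such as the mitochondrial gene regulator GABPA, were present in 14 of the 28 promoters. They were present in 9.12% of all 27025 promoters, in 11.7% of those of genes on the array and in 16.7% of the 8368 promoters with a GC content at or above the members' median of 59.2%, called GC-rich here. Of the 14 members at or above that median 8 held them. The letters were found in 6 of the 13 matched members that were higher at an unadjusted p under 0.05 and in 8 of the other 15, and the median difference was 0.20 with them and 0.27 without.

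The 160 bases before the start are shown for all 11 members with ETS letters among them, with those letters, or their reverse complement, in capitals. The first 5 were higher at an unadjusted p under 0.05 and the other 6 were not.
Tomm22 (chr15:79670708-79670867, strand +): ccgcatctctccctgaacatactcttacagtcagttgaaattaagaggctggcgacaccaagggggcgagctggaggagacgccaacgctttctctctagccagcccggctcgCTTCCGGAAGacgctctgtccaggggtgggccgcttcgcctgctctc
Timm23 (chr14:32201892-32202051, strand -): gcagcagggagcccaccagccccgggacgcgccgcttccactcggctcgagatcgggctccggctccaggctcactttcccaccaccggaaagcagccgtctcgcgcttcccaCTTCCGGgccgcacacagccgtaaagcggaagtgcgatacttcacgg
Timm10 (chr2:84826861-84827020, strand +): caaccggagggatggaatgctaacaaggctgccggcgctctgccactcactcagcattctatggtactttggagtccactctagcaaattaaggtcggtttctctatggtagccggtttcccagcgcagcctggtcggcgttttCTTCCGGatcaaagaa
Timm8b (chr9:50603741-50603900, strand +): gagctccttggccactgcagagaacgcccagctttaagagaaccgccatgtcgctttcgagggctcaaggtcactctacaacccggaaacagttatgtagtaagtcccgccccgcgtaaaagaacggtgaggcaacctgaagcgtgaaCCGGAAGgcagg
Pmpca (chr2:26389188-26389347, strand +): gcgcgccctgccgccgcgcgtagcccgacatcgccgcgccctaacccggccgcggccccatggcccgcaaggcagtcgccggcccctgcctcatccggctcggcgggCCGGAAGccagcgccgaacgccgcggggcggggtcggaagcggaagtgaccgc
Pmpcb (chr5:21737000-21737159, strand +): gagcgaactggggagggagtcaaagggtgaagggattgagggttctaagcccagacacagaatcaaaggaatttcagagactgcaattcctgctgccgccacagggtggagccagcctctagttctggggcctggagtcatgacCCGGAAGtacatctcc
Mtx1 (chr3:89213908-89214067, strand -): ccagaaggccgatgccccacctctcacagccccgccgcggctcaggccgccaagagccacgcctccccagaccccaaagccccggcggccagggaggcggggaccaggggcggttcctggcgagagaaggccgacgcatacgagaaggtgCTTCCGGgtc
Mtx2 (chr2:74825652-74825811, strand +): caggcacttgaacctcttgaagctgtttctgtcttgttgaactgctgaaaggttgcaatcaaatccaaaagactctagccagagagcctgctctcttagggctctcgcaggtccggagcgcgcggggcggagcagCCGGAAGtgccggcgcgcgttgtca
Timm8a2 (chr14:122034514-122034673, strand +): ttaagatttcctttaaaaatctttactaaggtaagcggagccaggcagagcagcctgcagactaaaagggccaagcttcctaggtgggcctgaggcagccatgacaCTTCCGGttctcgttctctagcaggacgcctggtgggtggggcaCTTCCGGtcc
Tomm34 (chr2:164071170-164071329, strand -): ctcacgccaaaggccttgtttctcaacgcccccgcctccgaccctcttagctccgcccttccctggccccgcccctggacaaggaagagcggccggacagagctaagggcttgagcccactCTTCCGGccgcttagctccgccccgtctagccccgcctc
Tomm70a (chr16:57121554-57121713, strand +): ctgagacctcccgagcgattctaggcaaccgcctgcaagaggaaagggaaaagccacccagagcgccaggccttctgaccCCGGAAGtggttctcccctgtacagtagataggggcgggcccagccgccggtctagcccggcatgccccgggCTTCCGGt
In Tomm22 the match on one strand overlaps the match on the other. The Tomm40 promoter had no ETS match and is shown with the 3 CCAAT matches of these bases, searched on both strands, in capitals.
Tomm40 (chr7:19715430-19715589, strand -): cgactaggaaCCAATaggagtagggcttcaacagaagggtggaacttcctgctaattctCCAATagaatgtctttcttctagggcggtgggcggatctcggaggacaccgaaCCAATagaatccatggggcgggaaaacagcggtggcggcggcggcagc
CCAAT was present in 8 of the 28 promoters, against 37.9% of all promoters and 32.8% of the GC-rich ones. The palindromic site of the regulator NRF1 was present in 3, those of Pam16, Timm8b and Tomm20, against 4.78% of all promoters and 11.1% of the GC-rich ones. GGGCGG was in 15 of the 28, against 35.9% of all promoters but 79.7% of the GC-rich ones, where 12 of the 14 GC-rich members held it. The E-box CACGTG was in 5, against 7.24% of all and 11.01% of GC-rich promoters. The YY1 letters GCCATCTT were in 2, against 2.88% and 4.03%, the TATA letters TATAAA in 1, against 14.2% and 3.54%, and the cAMP response element TGACGTCA in 0, against 1.88% and 3.32%. Counts out of 28 include members below the GC cut, so only the 14 GC-rich members compare with the GC-rich promoters. Of those 14, CCAAT was in 5, the NRF1 site in 2 and CACGTG in 3. GCCATCTT was in 2 of them, TATAAA in 0 and TGACGTCA in 0. These are matches of letters only.

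At the outer membrane, all 8 TOM genes measured had a higher mean with cre, against 51.4% of all genes. At an unadjusted p under 0.05 there were 3 of them higher, against 6.56% of all genes. Tomm40 encodes the channel of the gate. It measured 7.41, 7.08 and 7.28 on the LysM+/+ arrays and 7.75, 8.02, 7.76 and 7.73 on the LysM+/cre arrays. The genotypes did not overlap, and the difference was 0.56 ± 0.11 (SE, adjusted p = 0.328, limma). Tomm22, the central receptor that holds the complex together, measured 7.98, 7.56 and 7.67 without cre and 8.30, 8.16, 8.09 and 7.98 with cre. LysM+/+ array 1 reached exactly the lowest LysM+/cre value, and the difference was 0.40 ± 0.12 (SE, adjusted p = 0.395, limma). Tomm20, the presequence receptor, measured 8.94, 8.67 and 8.63 without cre and 9.03, 9.11, 8.95 and 8.87 with cre. Its difference was 0.24 ± 0.098 (SE, adjusted p = 0.425, limma), and LysM+/+ array 1 again lay within the LysM+/cre range.

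The other outer membrane genes differed by less. Tomm70a, the receptor for carrier precursors, had a difference of 0.17 (95% interval -0.14 to 0.48), and Tomm7, a small subunit, one of 0.23 (-0.12 to 0.58). These rest on single arrays, since Tomm7 lay at 0.087 when LysM+/+ array 3 was left out and at 0.15 when LysM+/cre array 1 was, and Tomm70a at 0.079 without LysM+/cre array 4 and 0.26 without LysM+/cre array 1. Tomm34, a cytosolic co-chaperone of import, lay at 0.04 (-0.11 to 0.19). The paralogs of the channel and of the presequence receptor lay below their partners, with Tomm40l at 0.09 (-0.21 to 0.39) and Tomm20l at 0.12 (-0.02 to 0.25), but the difference between paralogs was not tested. Tomm40l was high on LysM+/cre array 1 alone (6.55, against 6.06 to 6.12 on the other 3), and without that array its difference was -0.019. Tomm20l was the member below the median gene, between 4.28 and 4.48 on all arrays.

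Each of the 3 SAM genes had a higher mean with cre, against 51.4% of all genes, and none differed at an unadjusted p under 0.05. Samm50, the barrel-shaped core, measured 8.46, 8.35 and 8.15 without cre and 8.64, 8.66, 8.46 and 8.42 with cre, and the difference was 0.22 ± 0.10 (SE, adjusted p = 0.451, limma). The metaxins Mtx1 and Mtx2, which face the cytosol, lay at 0.17 (95% interval -0.10 to 0.45) and 0.27 (-0.03 to 0.58). The genotypes overlapped for all 3 genes. Without LysM+/+ array 3 the difference was 0.14 for Samm50 and 0.096 for Mtx1, and without LysM+/cre array 3 it was 0.095 for Mtx1.

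The TIM23 channel was the role with the largest share of members past the unadjusted threshold, at 4 of 5. Over all genes 6.56% were higher at that threshold, and 11.5% of genes above the median level. Each role holds few genes, and roles were not tested against each other. Timm50, the receptor that receives presequences from the outer membrane, measured 7.29, 7.58 and 7.25 without cre and 7.76, 7.90, 7.64 and 7.88 with cre. Its genotypes did not overlap (difference 0.42 ± 0.11, SE, adjusted p = 0.354, limma). Timm23, the pore subunit, measured 10.03, 9.76 and 9.52 without cre and 9.97, 10.24, 10.14 and 10.13 with cre. Here LysM+/+ array 1 lay above LysM+/cre array 1, the difference was 0.35 ± 0.13 (SE, adjusted p = 0.415, limma), and it was 0.22 without LysM+/+ array 3.

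Both forms of the second channel subunit were higher. Timm17a measured 7.94, 7.81 and 7.56 without cre and 8.05, 8.38, 8.03 and 8.01 with cre, and its difference was 0.34 ± 0.13 (SE, adjusted p = 0.415, limma). Timm17b measured 7.60, 7.80 and 7.54 without cre and 8.56, 7.87, 7.85 and 8.15 with cre, and its difference was 0.46 ± 0.18 (SE, adjusted p = 0.422, limma). Neither gene's genotypes overlapped, although LysM+/+ array 1 for Timm17a and LysM+/+ array 2 for Timm17b came close to the LysM+/cre range. With the fibroblast score as a covariate the Timm17b difference was 0.086. The fifth member, Timm21, which links the channel to the outer membrane and to the respiratory chain, lay at 0.09 (95% interval -0.26 to 0.43).

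All 6 motor genes had a higher mean with cre, against 51.4% of all genes. At an unadjusted p under 0.05 there were 3 of them higher, against 6.56% of all genes. The largest difference in the family belonged to Dnajc15, a J-domain co-chaperone of the motor, which measured 8.31, 8.02 and 7.77 without cre and 8.78, 8.70, 8.67 and 8.55 with cre. All 4 LysM+/cre arrays were higher, and the difference was 0.64 ± 0.13 (SE, adjusted p = 0.328, limma). Grpel2, a nucleotide exchange factor for Hspa9, measured 6.86, 7.01 and 7.11 without cre and 7.52, 7.63, 7.70 and 7.56 with cre. It had the smallest p of the family, with a difference of 0.60 ± 0.081 (SE, adjusted p = 0.303, limma) and a gap between the genotypes wider than the range within either. Its paralog Grpel1 measured 8.20, 7.77 and 7.85 without cre and 8.43, 8.34, 8.19 and 8.12 with cre. The genotypes overlapped for Grpel1, and the difference was 0.33 ± 0.13 (SE, adjusted p = 0.416, limma).

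The centre of the motor had smaller differences. Hspa9, the matrix Hsp70 that pulls the chain, measured 9.37, 9.37 and 9.29 without cre and 9.52, 9.40, 9.37 and 9.30 with cre, a difference of 0.05 (95% interval -0.11 to 0.22). Timm44, which tethers it to the channel, measured 7.31, 7.25 and 7.64 without cre and 7.41, 7.53, 7.46 and 7.41 with cre, a difference of 0.05 (-0.19 to 0.30). The Timm44 difference was 0.18 without LysM+/+ array 3 and -0.022 without LysM+/+ array 2. Pam16, a J-like protein that restrains the J-domain subunit, lay at 0.05 (-0.10 to 0.19). The upper bounds for Hspa9 and Pam16 lie below the lower bounds of the intervals for Grpel2 (0.41 to 0.80) and Dnajc15 (0.34 to 0.95), but the difference between members was not itself tested.

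**Figure D2:**
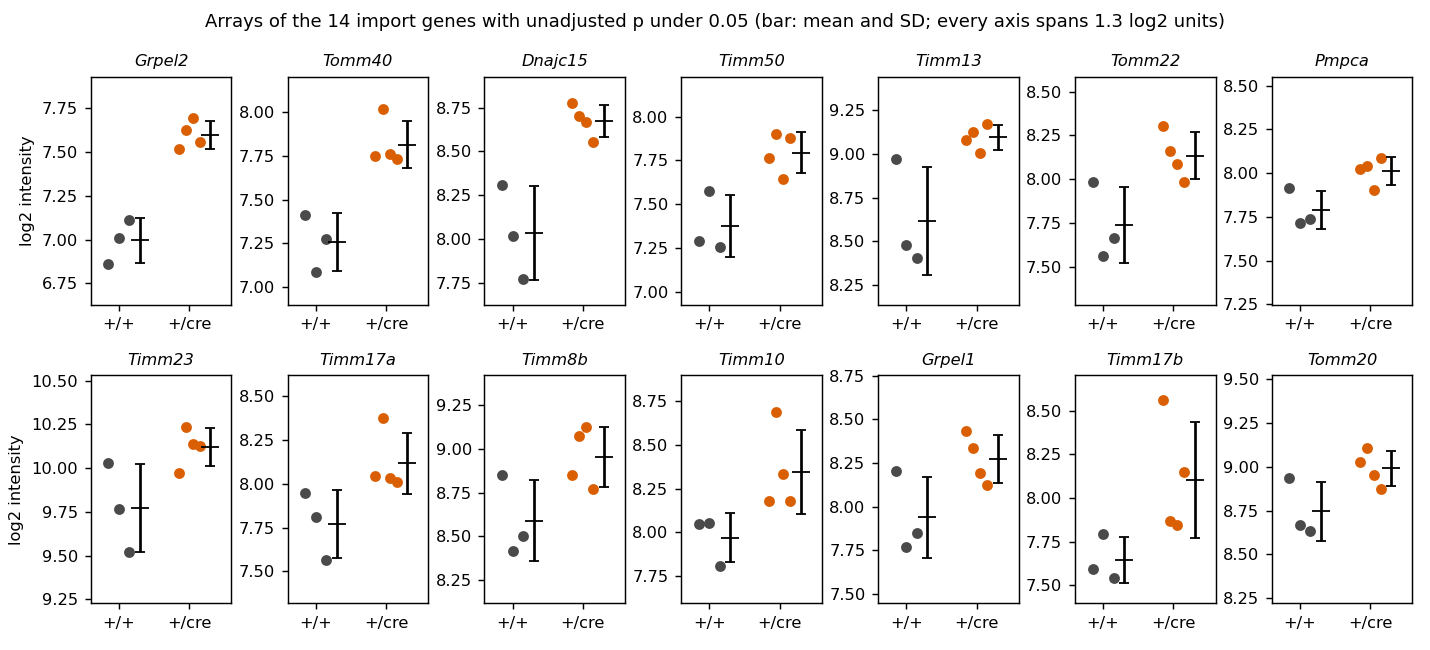
Log2 intensity on each array (y axis, every panel spanning 1.3 units) for the 14 import genes with an unadjusted p under 0.05, in order of p, with LysM+/+ arrays in grey, LysM+/cre arrays in orange and the mean and SD as bars. The genotypes are apart in 8 panels, and LysM+/+ array 1, the leftmost grey point, is the highest control in 10 of them.

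The carrier pathway holds the small TIM chaperones and the TIM22 translocase, which were not tested against each other. Of the 6 small TIM genes, 4 had a higher mean with cre, against 51.4% of all genes. At an unadjusted p under 0.05 there were 3 higher, against 6.56% of all genes. Timm13, which forms a chaperone ring with a Timm8 protein, measured 8.97, 8.48 and 8.40 without cre and 9.08, 9.12, 9.01 and 9.17 with cre. The genotypes did not overlap (difference 0.48 ± 0.14, SE, adjusted p = 0.394, limma). Timm8b measured 8.85, 8.42 and 8.50 without cre and 8.85, 9.08, 9.12 and 8.77 with cre. LysM+/+ array 1 equalled LysM+/cre array 1, and the difference was 0.37 ± 0.14 (SE, adjusted p = 0.415, limma).

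Timm10 and Timm9 form the ring that carries most carrier precursors. Timm10 measured 8.05, 8.06 and 7.81 without cre and 8.18, 8.68, 8.33 and 8.18 with cre, with no overlap and a difference of 0.37 ± 0.14 (SE, adjusted p = 0.416, limma). Timm9 measured 5.87, 5.87 and 5.46 without cre and 5.85, 6.09, 5.73 and 6.44 with cre. Its genotypes overlapped, and its difference of 0.29 had a 95% interval of -0.16 to 0.75. Leaving out LysM+/+ array 3 gave 0.16, and leaving out LysM+/cre array 4 gave 0.15. The Timm8a genes had lower means with cre, Timm8a2 by a difference of -0.15 (-0.36 to 0.07, and -0.080 without LysM+/cre array 1 or -0.095 without LysM+/+ array 3) and Timm8a1 by one of -0.13 (-0.81 to 0.54). The other probe sets of Timm8a1 gave differences of 0.11 and -0.069, and its sign turned without LysM+/+ array 2 (0.020) or LysM+/cre array 3 (0.048), so no direction can be read for that gene.

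In the TIM22 complex no gene differed at an unadjusted p under 0.05. Timm22, the channel for carriers, measured 5.93, 5.90 and 5.50 without cre and 5.90, 5.93, 5.90 and 6.23 with cre. The genotypes overlapped, LysM+/+ array 3 was low and LysM+/cre array 4 was high, and the difference was 0.21 (95% interval -0.11 to 0.54). It was 0.078 without the first of these arrays and 0.14 without the second. Timm29, another subunit, lay at -0.03 (-0.31 to 0.26). Timm10b, a small TIM protein bound to the complex, had the most negative difference of the family, with 8.55, 8.34 and 8.28 without cre and 8.16, 8.28, 8.22 and 8.14 with cre. That difference was -0.19 ± 0.081 (SE, adjusted p = 0.442, limma), and the second probe set of the gene gave 0.028. Without LysM+/+ array 1 the first gave -0.11.

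The matrix processing peptidase has 2 subunits, and the difference between them was not tested. Pmpca, the subunit that recognises presequences, measured 7.91, 7.71 and 7.74 without cre and 8.02, 8.04, 7.90 and 8.08 with cre. Its difference was 0.22 ± 0.076 (SE, adjusted p = 0.406, limma), with LysM+/+ array 1 above LysM+/cre array 3. Pmpcb, the catalytic subunit, measured 8.48, 8.41 and 8.47 without cre and 8.45, 8.15, 8.40 and 8.48 with cre, a difference of -0.08 (95% interval -0.30 to 0.14). Without LysM+/cre array 2 the Pmpcb difference was -0.0067.

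The family was then summarised on each array as the mean deviation of its 33 genes from their means over all arrays. This import score was -0.028, -0.12 and -0.23 on the LysM+/+ arrays and 0.10, 0.16, 0.047 and 0.068 on the LysM+/cre arrays. The genotypes did not overlap, and the control arrays spread over a wider range than the gap between the genotypes. LysM+/+ array 3 held the lowest value of 18 of the 33 genes, and LysM+/cre array 2 the highest value of 9.

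Marker genes of other cells varied over the same arrays. For the counts of markers below, 6.56% of all genes were higher and 4.93% lower at an unadjusted p under 0.05 (limma). The 13 monocyte and neutrophil markers measured all had higher means with cre, 2 of them at an unadjusted p under 0.05. Their score was 0.19, -1.19 and -0.31 on the LysM+/+ arrays and -0.20, 0.35, 1.29 and -0.13 on the LysM+/cre arrays, and their mean level ran from 5.79 to 7.17 and from 6.78 to 8.27. With this score as a covariate the median difference of the import genes was 0.23. In that fit 5 members were higher at an unadjusted p under 0.05, against 6.56% of all genes. Epithelial markers (13 of 14 lower with cre, 2 of them at an unadjusted p under 0.05) scored -0.79, 0.63 and 0.82 without cre and -0.28, 0.44, -0.24 and -0.60 with cre, at mean levels of 6.69 to 8.30 and 6.87 to 7.91. With the epithelial score as a covariate, chosen after the data were seen, the median was 0.20. At that threshold 8 members were higher, against 5.14% of all genes.

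Fibroblast markers (9 of 12 lower with cre, 5 of them at an unadjusted p under 0.05) scored 0.36, 0.095 and 0.20 without cre and -0.35, 0.097, -0.26 and -0.15 with cre, at mean levels of 7.13 to 7.40 and 6.69 to 7.13. The median difference of the import genes was 0.32 with this score as a covariate. This fit had 11 members higher at an unadjusted p under 0.05, against 3.6% of all genes. Cycling genes scored -0.29, -0.053 and -0.022 without cre and 0.35, 0.021, -0.18 and 0.18 with cre, at mean levels of 6.68 to 6.95 and 6.80 to 7.32. Of the 11 measured, 8 were higher with cre. Rrm2, Mcm2 and Mcm5 were higher at an unadjusted p under 0.05, against 6.56% of all genes. Their LysM+/cre arrays all lay above the LysM+/+ arrays, against 5.23% of all genes. The 3 lower in mean were Mki67 (-0.45), Pcna (-0.20) and Aurkb (-0.063). With the cycling score as a covariate the median difference of the import genes was 0.24. In that fit 12 members were higher at that threshold, against 5.62% of all genes. Endothelial (9 of 10 lower), dendritic (5 of 6 lower), T and NK cell (6 of 9 lower) and B and plasma cell markers (4 of 6 higher) were measured too, and their part in the result was not tested. Endothelial markers averaged 5.55 to 6.29 without cre and 5.68 to 5.84 with cre, and dendritic markers 6.97 to 7.59 and 6.27 to 7.52. T and NK cell markers averaged 4.92 to 5.01 and 4.88 to 4.98, and B and plasma cell markers 5.68 to 6.04 and 5.57 to 6.16.

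**Figure D3:**
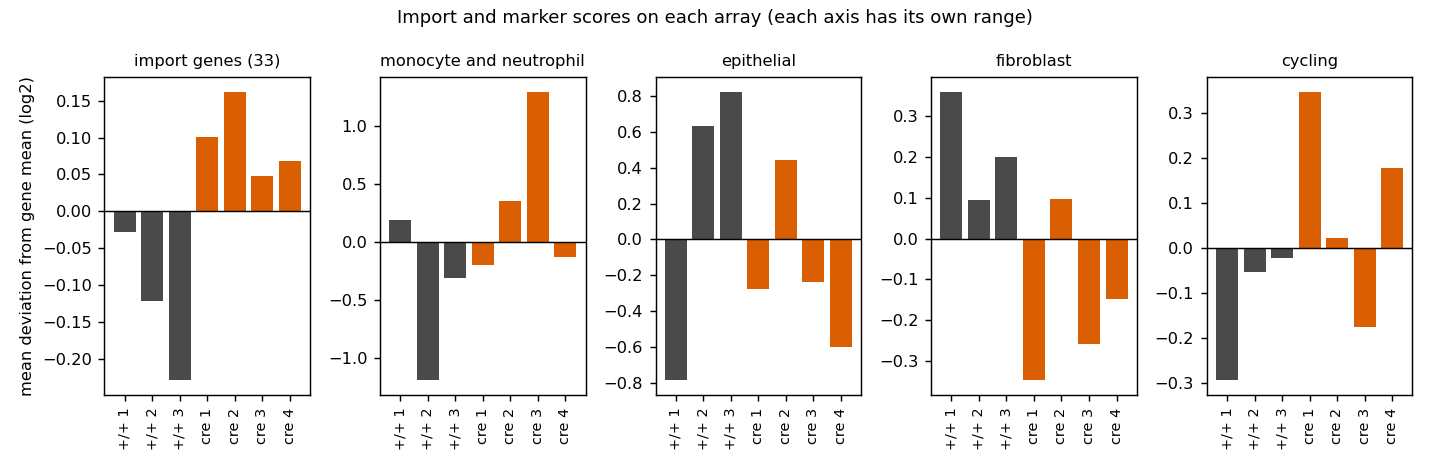
Mean deviation from each gene's mean (y axis, log2, with its own range in each panel) on every array for the 33 import genes and for 4 marker lists, with LysM+/+ arrays in grey and LysM+/cre arrays in orange. The import score is below 0 on the 3 LysM+/+ arrays and above 0 on the 4 LysM+/cre arrays. Each marker score overlaps between the genotypes, but the fibroblast score does so only through LysM+/cre array 2 (0.097, against 0.095 on LysM+/+ array 2).

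Genes that act beside the import machinery were measured too, without a test against the import family. Of the 60 measured in 9 related lists, 38 had a higher mean with cre, or 63.3% against 51.4% of all genes. At an unadjusted p under 0.05 there were 4 higher, or 6.67% against 6.56% of all genes, and 3 lower, with 0 past an adjusted p of 0.05 (limma). The share higher at that threshold is thus near that of all genes. However, 58 of the 60 lie above the median level, where that share is 11.5%. The genes below are given as values. All 5 genes of the outer membrane insertase and channels were higher, 2 at an unadjusted p under 0.05. These were Mtch1, an insertase-related protein, at 0.40 ± 0.089 (SE, adjusted p = 0.333, limma) and Vdac2, a metabolite channel, at 0.28 ± 0.089 (SE, adjusted p = 0.401, limma), with Vdac1 at 0.39 and Vdac3 at 0.23. Among 10 quality control proteases and scaffolds, 8 had higher means and 2 passed the unadjusted threshold, the rhomboid protease Parl at 0.37 ± 0.11 and the inner membrane scaffold Phb2 at 0.21 ± 0.067 (SE). The matrix protease subunits Clpp (0.25) and Lonp1 (0.26) did not.

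Chaperones that fold the imported chains come next. Of 6 matrix folding chaperones, 3 had higher and 3 lower means, none at an unadjusted p under 0.05. The chaperonin Hspd1 lay at -0.61 ± 0.26 (SE, adjusted p = 0.442, limma), its partner Hspe1 at -0.22, the Hsp90 homologue Trap1 at 0.20 and Dnlz, which keeps Hspa9 soluble, at -0.077. Of 4 later processing peptidases, 2 were higher and 2 lower in mean. Pitrm1, which degrades cleaved presequences, lay below its controls on every array (9.20 ± 0.35 against 8.56 ± 0.11, SD, n = 3 and n = 4), a difference of -0.64 ± 0.16 (SE, adjusted p = 0.354, limma). The inner membrane peptidase subunit Immp1l lay at 0.27, Xpnpep3 at -0.10 and Mipep at 0.15.

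Of 7 genes of the disulphide relay and inner membrane insertion, 6 had higher means and 0 passed the unadjusted threshold, with the relay receptor Chchd4 at 0.19, its oxidase Gfer at 0.32, the insertase Oxa1l at 0.14 and the assembly factor Timmdc1 at 0.20. For the 9 genes of MICOS, the complex that shapes the cristae, and its partners, 6 had higher means and 0 passed, with Apool at 0.25, Micos10 at 0.19, Dnajc11 at 0.14 and Micos13 at 0.25. Of 4 cytosolic chaperones that deliver precursors, Hsp90aa1 lay at -0.52 ± 0.14 (SE, adjusted p = 0.364, limma), Hspa8 at -0.039, Stip1 at 0.16 and Dnaja2 at 0.20. The mitophagy genes Pink1 and Pgam5 lay at -0.16 and 0.021.

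Of 13 regulators of mitochondrial genes, 5 were higher in mean. The coactivator Ppargc1b was lower at an unadjusted p under 0.05, with a difference of -0.42 ± 0.15 (SE, adjusted p = 0.413, limma). Its relative Ppargc1a lay at -0.41 ± 0.26 (SE) and Yy1 at 0.20, neither past that threshold. The Ppargc1a value rests on LysM+/+ array 2, at 5.59. LysM+/+ arrays 1 and 3 both measured 4.53, and the LysM+/cre arrays 4.34 to 4.53. Nrf1 lay at -0.020, Gabpa, whose protein binds the ETS letters, at -0.0090, its partner Gabpb1 at 0.16, Tfam at 0.089 and Myc at -0.32.

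Other mitochondrial families showed differences of the same size. Among 71 mitochondrial ribosomal genes (symbols Mrpl or Mrps and a number) 69 had higher means, with a median difference of 0.21 and 16 higher at an unadjusted p under 0.05. Among 76 respiratory chain and ATP synthase genes 71 had higher means, with a median of 0.20 and 19 higher at that threshold. Over all genes 51.4% had higher means and 6.56% were higher at that threshold. Among genes above the median level these shares were 56.1% and 11.5%. That level was exceeded by 68 of the 71 ribosomal and 66 of the 76 respiratory genes. The ranges overlapped widely, from -0.19 to 0.64 for import genes, from -0.070 to 0.56 for ribosomal genes and from -0.24 to 0.61 for respiratory genes. The difference between families was not tested, and all rest on the same 7 arrays.

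**Figure D4:**
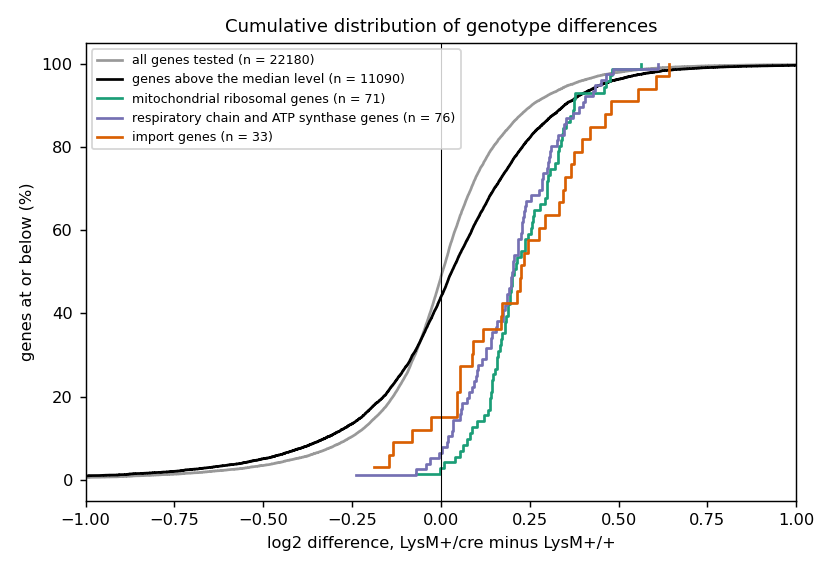
Share of genes (y axis, percent) with a log2 difference at or below each value (x axis, LysM+/cre minus LysM+/+, shown from -1 to 1) for all genes, genes above the median level and 3 mitochondrial families. The mitochondrial families lie to the right of the other curves over most of the range, with medians of 0.20 to 0.22 against 0.00 for all genes.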

How the data were processed

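RNA of sorted colon macrophages was measured on 7 arrays. Each probe set has a log2 intensity in the deposited table, which the authors made in Affymetrix Expression Console (named in the series' design text). The submitters' processing notes list Transcriptome Analysis Console as well. Versions, summarisation and background correction are not stated there. Such scaling between arrays hides a shift shared by all genes. Of 41345 probe sets, 23521 had exactly 1 symbol in the platform annotation and gave 22180 genes, by the probe set of highest mean in the 1082 genes with several. No filter on dim genes was applied.

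LysM+/cre was compared with LysM+/+ using lmFit and eBayes of limma 3.58.1 (R 4.3.3, no covariate, two-sided, Benjamini-Hochberg over all genes), and intervals are 95%. Members with an unadjusted p under 0.05 or a log2 difference of at least 0.3 in size, and core subunits of each complex, were to be named with every array, as were up to 4 genes per related list. Further members and related genes were named for their role. The members, lists, rules and alternatives were chosen with earlier results of these data known. On 20 simulated data sets of this comparison (22180 genes, 200 changed) the test recovered 75.2% of 2-fold and 94.6% of 4-fold changes, with 5.23% false calls. The simulated noise was independent between genes. The largest difference of an import gene was 1.56-fold, so these rates do not cover changes of the size seen here. Titles number the samples alike in both groups, but same-numbered samples did not all deviate together (correlations of -0.11, 0.12 and 0.10), so no pairing was used. Alternatives were 19 other settings. The number of arrays limits the precision. Python 3.11.15 and matplotlib 3.10.9 were used for promoters and figures.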

Additional observations from a re-analysis of the deposited data

Results flagged for a closer look

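In 4 of the 33 import genes 1 LysM+/cre array stood apart from the other 3 by Dixon's criterion. Its nominal rate is about 1 in 20 groups, but 18.4% of the 21840 genes whose LysM+/cre arrays were not all equal met it in these values, so 4 of 33 is not above the background. Tomm40 measured 8.02 on LysM+/cre array 2, against 7.73 to 7.76 on the others. Timm17a measured 8.38 on the same array, against 8.01 to 8.05. Timm22 measured 6.23 on LysM+/cre array 4, against 5.90 to 5.93, and Tomm40l measured 6.55 on LysM+/cre array 1, against 6.06 to 6.12. Without LysM+/cre array 2 the difference was 0.49 for Tomm40 and 0.26 for Timm17a.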

How the results depend on the processing

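Over 19 alternatives, 0 import genes passed an adjusted p of 0.05 (limma), and 27 to 29 members had a higher mean with cre. The median difference, 0.22 as deposited, ranged from 0.16 to 0.29 with 1 array left out and was 0.32 with the fibroblast score as a covariate. The 14 members higher at an unadjusted p under 0.05 became 8 after quantile normalization, against 5.81% of all genes. They became 5 with the monocyte and neutrophil score as a covariate (6.56% of all genes) and 8 with the epithelial score (5.14%). With 1 array left out they numbered 6 to 13, while the share of all genes ran from 4.4% to 7.02%. The cause of these changes was not tested. Lower members numbered 1 rather than 0 after quantile normalization, with array weights and with the monocyte and neutrophil or the epithelial score, and 0 to 1 with 1 array left out. Of the 14, none changed sign, and Grpel2, Tomm40 and Dnajc15 kept an unadjusted p under 0.05 in all 19. Of all 33 members, 8 changed sign in at least 1 alternative. With the replicate number as a block 12 members were higher at that threshold, against 5.58% of all genes, and the median was 0.23. Only 1 of 3 LysM+/+ arrays correlated best with its own number. Signal over background is not given in the values, so limits of detection are unknown.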

Other observations

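Exactly equal values on different arrays were common in the deposited table. At least 2 of the 7 arrays agreed to the last digit for 15 of the 33 import genes and for 53.8% of all genes. In Hspa9, Mtx1, Tomm34 and Tomm40l 3 arrays held the same value, from both genotypes in each case, such as 9.37 on LysM+/+ arrays 1 and 2 and LysM+/cre array 3 for Hspa9. The overlap of the genotypes in Tomm22 and the equality noted for Timm8b at 8.85 are such ties.

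Another 7 probe sets carried a Tomm or Timm symbol joined with that of another gene and were left out. Their differences ran from -0.088 to 0.56, 6 of them higher with cre and 2 at an unadjusted p under 0.05.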
